A study of Mus musculus with 8 samples.

Results

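The p53 protein is a transcription factor that is held at a low level in unstressed cells and accumulates after DNA damage or disturbed ribosome production. Part of its target genes act in apoptosis, a programmed form of cell death. In the mitochondrial route, BH3-only proteins free the effector Bax to permeabilise the outer mitochondrial membrane, and released cytochrome c then assembles with Apaf1 into the caspase-activating apoptosome. In the death receptor route, a ligand outside the cell binds a receptor of the tumour necrosis factor receptor family, whose death domain recruits the adaptor Fadd and caspase-8. The genes described here are 10 p53 targets listed under apoptosis or death receptor signalling, taken by symbol as rows on primary chromosomes. The receptors are Fas, Tnfrsf10b and Eda2r, the last of which has no death domain. Pmaip1 and Bbc3 are BH3-only genes, Bax is the effector and Apaf1 the apoptosome subunit, while Perp, Aen and Zmat3 act elsewhere in the cell. All 10 were found once each among the 52778 rows of the table, and all 10 are among the 15541 rows tested, those with a mean of at least 1 TPM over the 8 libraries.

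RNA was sequenced from ventricular heart tissue of mouse embryos at embryonic day 11.5, with 4 libraries of conditional knockout embryos (cKO; Rps19bp1 fl/fl; Xmlc2-Cre +/−) and 4 of control embryos. The Xmlc2-driven Cre acts in cardiomyocytes, so the other cells of the ventricle keep the floxed gene. The labels do not say whether control embryos carried Cre or floxed alleles, and their genotype field reads C57BL/6 WT for all 8 libraries. The series text calls the 4 libraries of a group biological replicates, and all 8 carry the same batch label. The labels contradict each other on the material: the extraction text speaks of cortical neurons and depletion of ribosomal RNA, the series text of ventricles and a stranded mRNA kit. Of 10 neuronal markers, 7 averaged under 1 TPM.

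Rps19bp1, the targeted gene, lay at 15.2, 11.8, 13.7 and 19.2 TPM in cKO libraries 1 to 4 and between 34.7 and 44.2 TPM in the controls. The defining cardiomyocyte markers summed to 52378 to 55535 TPM in cKO and 53652 to 58551 TPM in control over 15 genes. Of these, 13 had a negative change, and 1 was called lower by limma, the cardiac transcription factor gene Nkx2-5 (205 ± 37.7 TPM in cKO against 282 ± 27.7 TPM in control, SD, n = 4; log2 change -0.48, adjusted p = 0.0453). That call lies close to the threshold of 0.05, and Nkx2-5 was not followed through the alternative settings. Of all 15541 tested rows, 8678 had a negative change and 4.23% were called lower. TPM is a measure per transcript length whose values sum to 1000000 in each library. Levels can therefore be compared between genes, but how deeply each library was sequenced cannot be read from them, and the series text gives a planned depth only. Rows of mitochondrial, globin and ribosomal RNA took 13.9% to 16.6% of TPM in cKO and 12.5% to 12.98% in control. Epicardial and mesenchymal markers were also higher in cKO and are given beside Perp below, and in bulk tissue a change in the number of cells of a type and a change in RNA per cell cannot be told apart.

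Promoter sequences were searched for letters that resemble the binding motif of p53. A p53 response element is a pair of p53 half-sites, each a degenerate palindrome of 10 bases, with a spacer of up to 13 bases. Of the 10 genes, 6 had a promoter of 300 bases (250 before and 50 after a transcription start) in the RefSeq table of GRCm38.p6. An exact half-site was found in 2 of these 6, Bax and Aen, and in 9.55% of the 27025 genes of that table. The half-site reads the same on both strands, so 1 search covers both. The best pair of half-sites in the windows of Bax, Aen and Bbc3 is printed 5′ to 3′ on the gene's strand, with the half-sites in capitals and the spacer in lower case. For Bbc3 a pair in another window was equally far off, and the one nearer to its start is shown.
Bax, chr7:45467090-45467110, minus strand, 212 bases before the start: AAGCATATCCcAGGCAAGCTT
Aen, chr7:78895937-78895963, plus strand, 10 bases after the first start and 121 bases before the second start: GGGCTTGTCCgggcaagGAGCTTCCGC
Bbc3, chr7:16309486-16309505, plus strand, 97 bases before the start at 16309583: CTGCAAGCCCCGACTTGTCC
The Bax pair is 1 base off the consensus, and 1.24% of genes in the table hold a pair at most that far off. The Aen pair is 2 bases off, as in 11.5% of genes or better, and the Bbc3 pair, which has no spacer, is 3 bases off, as in 48.5% of genes or better. Fas also reached 3 bases off, while the best pairs of Apaf1 and Eda2r were 4 bases off.

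The stretch of 200 bases that ends 51 bases before the start is shown for Bax, which holds the closest pair, and for Eda2r, which rose most in the libraries and has no exact half-site in its window. An exact half-site is in capitals. A match is a description of the letters and no evidence of binding, and a missing match covers this window alone.
Bax, chr7:45466949-45467148, minus strand: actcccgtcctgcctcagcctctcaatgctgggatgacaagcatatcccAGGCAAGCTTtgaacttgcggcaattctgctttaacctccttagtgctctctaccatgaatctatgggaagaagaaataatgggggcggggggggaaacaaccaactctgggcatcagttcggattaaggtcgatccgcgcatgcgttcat
Eda2r, chrX:97377260-97377459, minus strand: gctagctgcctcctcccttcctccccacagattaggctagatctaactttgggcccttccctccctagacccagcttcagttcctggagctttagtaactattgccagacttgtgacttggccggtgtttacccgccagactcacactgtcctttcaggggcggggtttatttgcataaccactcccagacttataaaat

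All 10 genes rose in cKO. Each had a limma adjusted p under 0.05 (called, below), and in each of them all 4 cKO libraries lay above all 4 control libraries. Over all tested rows, 2.16% were called higher and 4.23% lower, and in 5.33% all cKO libraries lay above all controls. The median change of the 10 genes was 0.86 on the log2(TPM + 1) scale, with a range of 0.32 to 2.38, and the median over all tested rows was -0.02. Because the genes were chosen with earlier results of these data known, their count is a description. The split of all calls between directions depended on scaling, with 336 higher and 658 lower as deposited, 383 and 380 after quantile normalization, 383 and 419 after median-ratio scaling, and 390 and 383 after rescaling without mitochondrial, globin and ribosomal RNA rows. All 10 genes were called higher under each of these scalings.

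**Figure D1:**
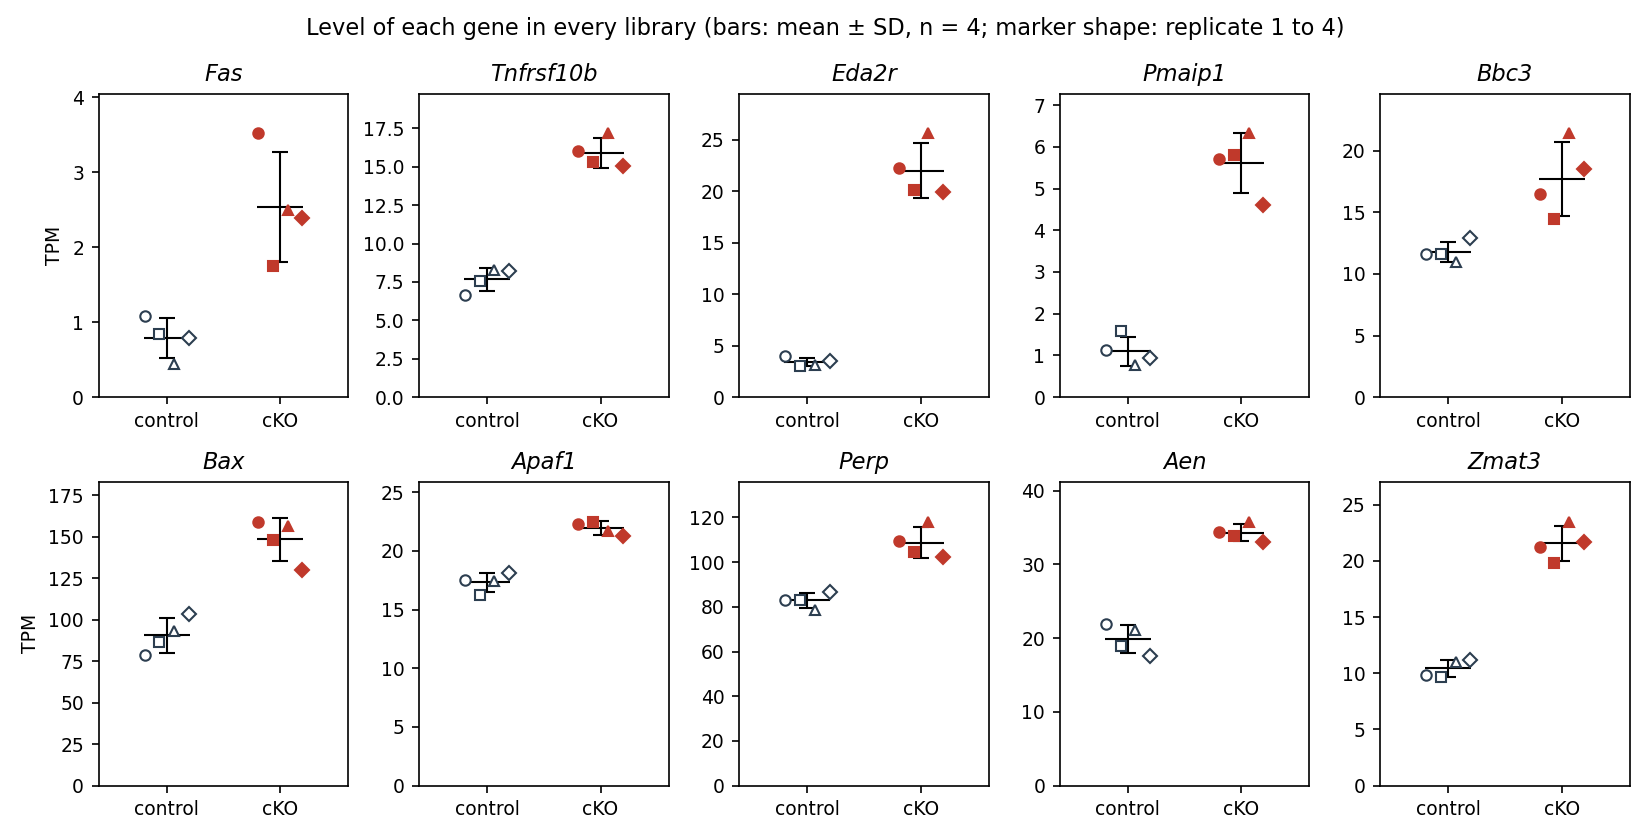
Level in TPM (vertical axes, each from 0) of the 10 genes in the 4 control (open) and 4 cKO (filled) libraries; horizontal bars and whiskers give mean ± SD, n = 4, and marker shapes the replicate numbers. In every panel all cKO libraries lie above all control libraries, and relative to the control level the gap is widest for Eda2r (19.9 to 25.7 TPM against 3.04 to 3.97 TPM).

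All 3 receptors rose, and Eda2r rose most. Eda2r (chrX:97333837-97377234, minus strand) encodes a receptor for the A2 form of ectodysplasin that, unlike the other two, has no death domain and signals through TRAF proteins. It stood at 3.97, 3.04, 3.15 and 3.48 TPM in control libraries 1 to 4 and at 22.3, 20.1, 25.7 and 19.9 TPM in cKO libraries 1 to 4. No cKO library came near the control range, and the mean was 6.45 times the control mean. The fitted change was 2.38 on the log2(TPM + 1) scale (SE 0.0973, limma adjusted p = 3.9e-06), the smallest p among all tested rows and second in size of rise. A pseudocount of 5 lowered this change to 1.68. Eda2r overlaps the row Gm18111 on the opposite strand, which averaged 0.0631 TPM in cKO and 0.00736 TPM in control.

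Tnfrsf10b (chr14:69767472-69784411, plus strand) encodes the death receptor for the ligand TRAIL. Its level was 6.64, 7.57, 8.27 and 8.20 TPM in the controls and 16.01, 15.3, 17.2 and 15.1 TPM in cKO. The cKO libraries were tightly grouped at 2.07 times the control mean (15.9 ± 0.954 against 7.67 ± 0.755 TPM, SD, n = 4), and the change was 0.97 on the log2(TPM + 1) scale (SE 0.0777, limma adjusted p = 0.000188).

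Fas (chr19:34290647-34327775, plus strand), the receptor for Fas ligand, was the least abundant of the 10 genes. It was measured at 1.09, 0.843, 0.442 and 0.794 TPM in the controls and at 3.52, 1.75, 2.49 and 2.39 TPM in cKO. Relative to their mean, the cKO libraries spread more than those of the other receptors, from library 2 at the low end to library 1 at the high end. The group means were 0.792 ± 0.267 TPM in control and 2.54 ± 0.732 TPM in cKO (SD, n = 4), a ratio of 3.21, and the change was 0.97 on the log2(TPM + 1) scale (SE 0.169, limma adjusted p = 0.0121). The control mean lies below 1 TPM, so Fas passed the filter on low values through its cKO level, and its fitted change depended on the pseudocount (1.58 at 0.1 and 0.38 at 5). With no filter on low values Fas was not called (limma adjusted p = 0.0543).

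Pairs of genes were compared within libraries, as the difference of their log2(TPM + 1) values. The test was an exact permutation test, two-sided, which enumerated all 70 ways to form the groups, and p was adjusted over 6 pairs. The rise of Eda2r exceeded that of Fas by 1.41 and that of Tnfrsf10b by 1.41 on this scale (adjusted exact p = 0.0429 for each, the smallest this design allows when 4 of the 6 pairs reach it). The rises of Fas and Tnfrsf10b differed by -0.01 (Tnfrsf10b minus Fas, adjusted exact p = 1), where the within-library difference had an SD of 0.28 in cKO and 0.34 in control. That pair depended on the pseudocount, because Fas is near 1 TPM: at a pseudocount of 5, Tnfrsf10b rose by 0.35 more than Fas (adjusted exact p = 0.0429). At a pseudocount of 0.1 the order was the other way, with fitted changes of 1.58 for Fas and 1.05 for Tnfrsf10b.

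Among the genes that act on the mitochondrial membrane, Pmaip1 rose most. Pmaip1 (chr18:66458604-66465558, plus strand) encodes Noxa, a BH3-only protein that binds Mcl1. It was present at 1.13, 1.58, 0.781 and 0.932 TPM in the controls and at 5.72, 5.81, 6.33 and 4.60 TPM in cKO. All cKO libraries were far above the controls, at 5.08 times the control mean, although cKO library 4 was lower than the other 3. The change was 1.66 on the log2(TPM + 1) scale (SE 0.134, limma adjusted p = 0.000188), and it ran from 0.80 with a pseudocount of 5 to 2.28 with one of 0.1. Eda2r and Pmaip1 were the only 2 of the 10 genes past a change of 1, where 0.167% of all tested rows were called with a rise of at least that size.

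Bbc3 (chr7:16308398-16318334, plus strand) encodes Puma, a BH3-only protein that binds all antiapoptotic members of the BCL2 family. Its level was 11.6, 11.6, 11.005 and 12.9 TPM in the controls and 16.5, 14.4, 21.4 and 18.5 TPM in cKO. The cKO libraries spread widely, and the lowest of them, library 2, was close to the highest control. The group means were 11.8 ± 0.785 TPM in control and 17.7 ± 2.98 TPM in cKO (SD, n = 4), with a change of 0.54 on the log2(TPM + 1) scale (SE 0.106, limma adjusted p = 0.0203). Bbc3 had the largest adjusted p of the 10 genes and lost its call without control replicate 1 (0.0556), control replicate 2 (0.0524) or control replicate 3 (0.0602), and with no filter on low values (0.0767), all limma adjusted p.

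Bax (chr7:45461695-45466903, minus strand), the effector that forms the pore, was the most abundant of the 10 genes. Control libraries 1 to 4 held 78.96, 86.7, 93.1 and 103.7 TPM, and cKO libraries 1 to 4 held 159, 148, 156 and 130.1 TPM. In TPM this was the largest gain of the 10, 57.9 TPM between the means (149 ± 13.1 in cKO against 90.6 ± 10.4 in control, SD, n = 4). The change was 0.71 on the log2(TPM + 1) scale (SE 0.0884, limma adjusted p = 0.00281).

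Within libraries, the rise of Bbc3 was smaller than that of Pmaip1 by 1.12 and the rise of Bax smaller than that of Pmaip1 by 0.95 on the log2(TPM + 1) scale (adjusted exact p = 0.0429 each). The difference between Bax and Pmaip1 did not pass with a pseudocount of 5 (-0.11, adjusted exact p = 0.429). The size of the gap between Bbc3 and Pmaip1 also depended on the pseudocount. Fitted changes of Pmaip1 and Bbc3 were 2.28 and 0.57 at a pseudocount of 0.1, and 0.80 and 0.43 at 5. Bax rose by 0.17 more than Bbc3, which did not pass the test (adjusted exact p = 0.377), with SDs of the within-library difference of 0.27 in cKO and 0.14 in control.

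Apaf1 (chr10:90989311-91082743, minus strand), the scaffold of the apoptosome, had the smallest change of the 10 genes and the smallest standard error. It lay at 17.5, 16.2, 17.5 and 18.1 TPM in the controls and at 22.3, 22.5, 21.7 and 21.3 TPM in cKO. The groups were narrow and well apart, at 1.27 times the control mean, with a change of 0.32 on the log2(TPM + 1) scale (SE 0.0525, limma adjusted p = 0.00923). Apaf1 overlaps the start of Ikbip by 7 bp on the opposite strand, and Ikbip was not called (log2 change 0.11, limma adjusted p = 0.389).

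The remaining genes act elsewhere in the cell. Perp (chr10:18845071-18857073, plus strand) encodes a membrane protein of the p53 apoptosis programme that is also a component of desmosomes in epithelia. Its level was 83.2, 83.0, 78.6 and 86.7 TPM in the controls and 109, 105, 118 and 102 TPM in cKO. The cKO range began well above the highest control, and the mean was 1.31 times the control mean (log2(TPM + 1) change 0.38, SE 0.0548, limma adjusted p = 0.00573). None of the tested desmosome genes was called higher, where 2.16% of all tested rows were called higher. Of 10 desmosome genes 6 were tested, and 1 was called lower by limma (the plakophilin-related gene Pkp4, log2 change -0.17, adjusted p = 0.0447), which was also the only 1 with an unadjusted p under 0.05, where 4.23% of all tested rows were called lower and 23.7% had such a p. The Pkp4 call was lost under 14 of 18 alternatives, among them each of the 3 scalings, the replicate block and any 1 library left out (limma adjusted p up to 0.142). The desmosomal plaque genes Dsp (log2 change -0.11) and Pkp2 (-0.08) were abundant, at 162 and 139 TPM in cKO, and were not called.

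Markers of other cell types were examined beside Perp, since its product is also a component of desmosomes in epithelia. All 10 epithelial markers averaged under 1 TPM, with sums of 1.71 to 3.22 TPM in cKO and 1.59 to 2.18 TPM in control. The 10 epicardial markers summed to 474 to 583 TPM in cKO and 405 to 467 TPM in control, with 5 called higher and 0 lower. The 10 mesenchymal markers summed to 863 to 1050 TPM in cKO and 582 to 754 TPM in control, with 4 called higher and 0 lower, where 2.16% of all tested rows were called higher. The median log2 change was 0.36 for the epicardial and 0.44 for the mesenchymal markers, close to the change of Perp, and their part in the changes of Perp and the other genes was not tested. None of the 10 endothelial and endocardial, 8 tested macrophage, 10 erythroid or 3 tested neuronal markers was called by limma, and 5, 1, 1 and 0 of them had an unadjusted p under 0.05, against 23.7% of all tested rows. In the same order, 9, 7, 0 and 3 of them had a positive change, as did 6863 of all 15541 tested rows. Their median log2 changes were 0.13, 0.31, -0.39 and 0.15. Erythroid markers summed to 1762 to 3772 TPM in cKO and 1979 to 7188 TPM in control.

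Aen (chr7:78895927-78911209, plus strand) encodes a nuclease that takes part in the breakdown of DNA during apoptosis. It was measured at 21.9, 18.97, 21.1 and 17.6 TPM in the controls and at 34.4, 33.9, 35.8 and 33.03 TPM in cKO. The cKO libraries lay within a narrow band, at 1.72 times the control mean, and the change was 0.76 on the log2(TPM + 1) scale (SE 0.0695, limma adjusted p = 0.000505).

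Zmat3 (chr3:32334792-32365665, minus strand) encodes a zinc finger protein that binds RNA. Its level was 9.89, 9.65, 11.03 and 11.2 TPM in the controls and 21.2, 19.8, 23.5 and 21.7 TPM in cKO. Each cKO library held clearly more than any control, at 2.07 times the control mean (log2(TPM + 1) change 0.98, SE 0.0711, limma adjusted p = 9.02e-05). The start of Zmat3 overlaps the long non-coding RNA row 4930429B21Rik on the opposite strand by 177 bp. That row rose as well, with 4.46 ± 0.591 TPM in cKO against 0.993 ± 0.323 TPM in control (SD, n = 4), a log2 change of 1.46 (adjusted p = 0.000505 by limma). Its control mean lies under 1 TPM, so it passed the filter on low values through its cKO level. Whether counting used strand is not given in the sources used here, so the origin of reads in the shared bases is uncertain.

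**Figure D2:**
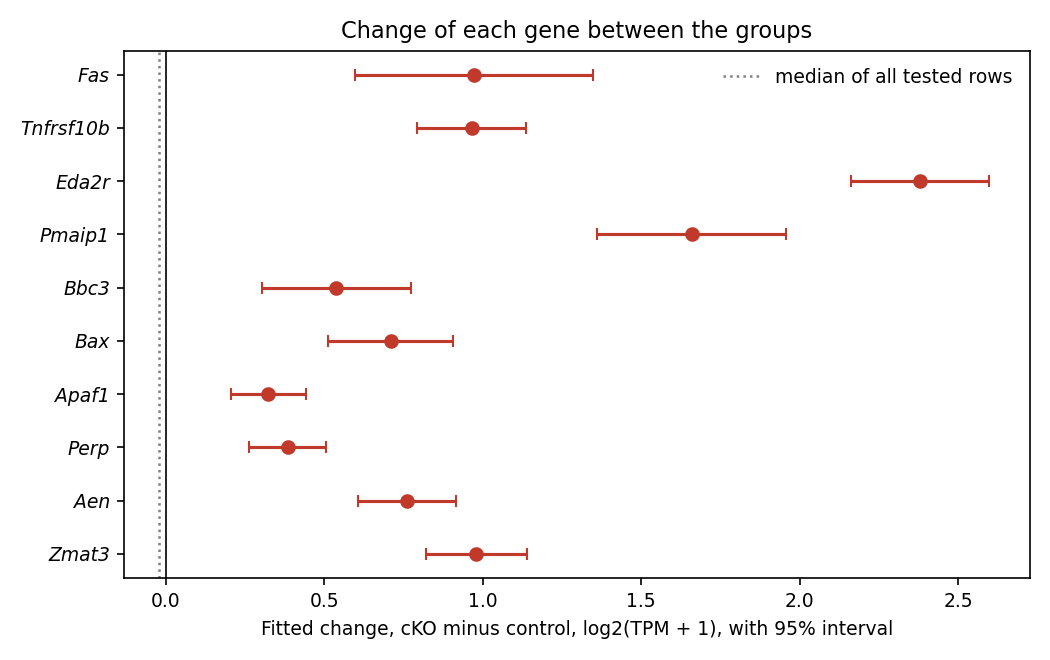
Fitted change of each gene, cKO minus control, on the log2(TPM + 1) scale (points) with its 95% interval from limma (bars); the dotted line is the median of all tested rows, -0.02. All intervals lie above 0, from Apaf1 (0.32) to Eda2r (2.38).

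Levels were then ordered within each group. In control the order from low to high was Fas, Pmaip1, Eda2r, Tnfrsf10b, Zmat3, Bbc3, Apaf1, Aen, Perp and Bax. The ranges of the libraries overlapped for the neighbours Fas and Pmaip1, Zmat3 and Bbc3, Apaf1 and Aen, and Perp and Bax. In cKO the order was Fas, Pmaip1, Tnfrsf10b, Bbc3, Zmat3, Apaf1, Eda2r, Aen, Perp and Bax. Eda2r moved from the third place to the seventh, and the 5 genes from Tnfrsf10b to Eda2r overlapped each with the next. Fas and Pmaip1 remained the least abundant in cKO, at 2.54 and 5.62 TPM.

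The cKO libraries differed in how far the genes rose. cKO library 3 had the highest level of 7 of the 10 genes within its group and the lowest of 0, while cKO library 4 had the highest of 0 and the lowest of 7. The median excess over the control mean was 0.89, 0.73, 0.90 and 0.80 on the log2(TPM + 1) scale in cKO libraries 1 to 4. Those libraries held Rps19bp1 at 15.2, 11.8, 13.7 and 19.2 TPM. Library 4, with the most Rps19bp1, was lowest for 7 genes, and library 2, with the least, was lowest for 3 and highest for 1. The share of all tested rows that were highest or lowest in each library is not given. Rows of mitochondrial, globin and ribosomal RNA took the largest share of TPM in cKO library 3 (16.6%). Whether the rise of the genes relates to the level of Rps19bp1 was not tested.

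**Figure D3:**
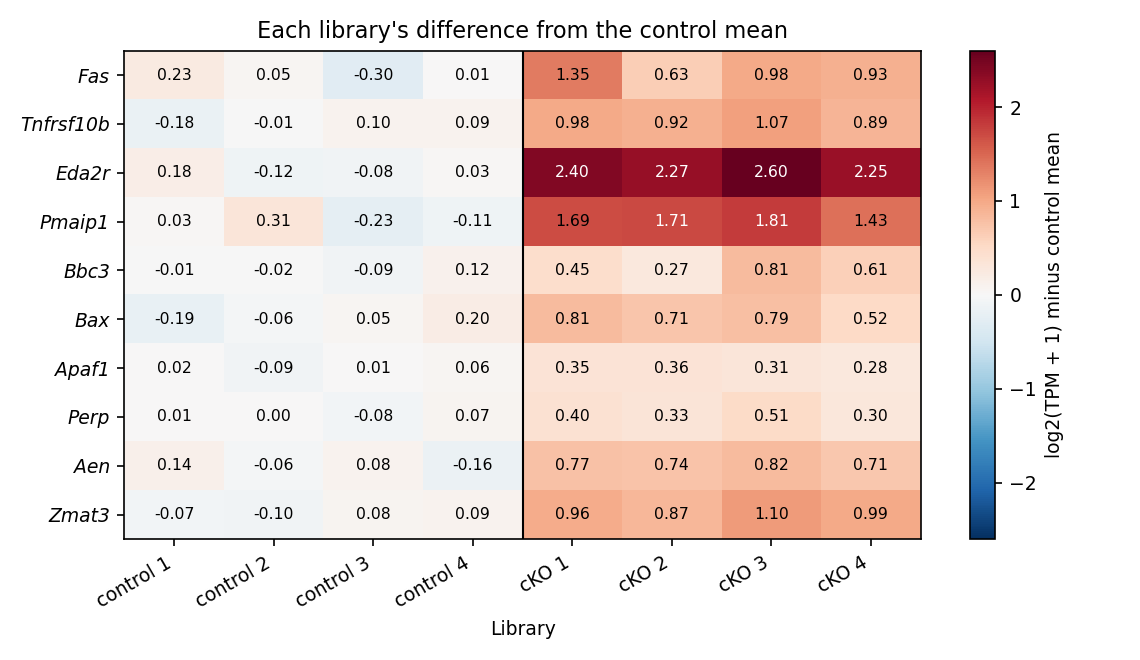
Difference of each gene in each library from the gene's control mean, on the log2(TPM + 1) scale (colour and printed value), for the 4 control and 4 cKO libraries. Every cKO value is above 0, and values in cKO library 3 reach 2.60 for Eda2r.

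No other tested gene of the death receptor pathway passed the test. Of 26 genes that encode ligands, other receptors, adaptors, caspase-8 and inhibitors, 19 were tested and 7 lay below the filter on low values. Of the tested 19, 0 were called in either direction by limma, where 2.16% of all tested rows were called higher and 4.23% lower. An unadjusted limma p under 0.05 was reached by 3 of the 19 and by 23.7% of all tested rows. The median log2 change of the tested 19 was 0.02, against -0.02 for all tested rows. The ligands of Fas and Tnfrsf10b were barely detected: Fasl averaged 0.0560 TPM in cKO and was listed at 0 in all control libraries, and Tnfsf10 averaged 0.0120 and 0.0129 TPM. Eda, which encodes the ectodysplasin forms including the ligand of Eda2r, was present at 2.89 ± 0.349 TPM in cKO and 3.24 ± 0.269 TPM in control (SD, n = 4), a log2 change of -0.12 (adjusted p = 0.48 by limma).

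The genes with the smallest p in that list lay downstream of the receptors. Cflar, which encodes the caspase-8 inhibitor c-FLIP, held 17.98, 16.8, 18.97 and 16.6 TPM in cKO and 14.3, 14.1, 15.2 and 15.8 TPM in control, with no overlap between groups (log2 change 0.23, limma adjusted p = 0.0612). Its limma adjusted p was 0.0484 with a filter at 5 TPM, 0.0475 after quantile normalization and 0.0437 after median-ratio scaling, and up to 0.141 over the other alternatives. Casp8 held 16.9, 15.9, 13.8 and 16.1 TPM in cKO and 18.3, 17.4, 19.04 and 19.1 TPM in control, again with no overlap but with the cKO libraries lower (log2 change -0.23, limma adjusted p = 0.0791). Over all tested rows, all cKO libraries lay above all controls in 5.33% and below all controls in 10.3%. Fadd was not called either (log2 change -0.20, limma adjusted p = 0.155). Cflar was singled out after its values were seen.

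In the mitochondrial route, 26 of 28 other genes were tested, and 4 were called by limma, 2 higher and 2 lower, with a median log2 change of -0.04, where 2.16% of all tested rows were called higher and 4.23% lower. Pidd1, a p53 target that encodes the scaffold of a caspase-2 activating complex, rose from 14.9, 15.1, 18.1 and 17.7 TPM in control to 33.8, 28.4, 32.6 and 26.8 TPM in cKO (log2 change 0.85, SE 0.0912, limma adjusted p = 0.00129). Its groups stood far apart, and it was called under all 18 alternatives. Casp6, an executioner caspase, rose as well, with 44.1 ± 2.30 TPM in cKO and 37.2 ± 1.11 TPM in control (SD, n = 4), a log2 change of 0.24 (adjusted p = 0.0268 by limma).

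Bok and Bik moved against Bax and the BH3-only genes described above. Bok, a relative of Bax, fell in cKO, with 29.1 ± 4.32 TPM against 39.7 ± 2.84 TPM in control (SD, n = 4), a log2 change of -0.45 (adjusted p = 0.0331 by limma). Bik, a BH3-only gene, fell too, with 21.6 ± 2.38 TPM against 28.5 ± 1.91 TPM (SD, n = 4), a log2 change of -0.39 (adjusted p = 0.0274 by limma). In cKO library 3 both were lowest, at 22.9 and 18.01 TPM. The calls of Bok, Bik and Casp6 were lost under 8, 6 and 7 of 18 alternatives. Among these, Bok lost its call without cKO library 1 or any 1 control library (limma adjusted p = 0.0600 to 0.0841), Bik without cKO library 1 or control library 2, 3 or 4 (0.0540 to 0.0714), and Casp6 without cKO library 1 or control library 1, 2 or 3 (0.0643 to 0.0718). Bak1, the other main pore-forming effector beside Bax, stood at 76.5 ± 5.62 TPM in cKO and 88.7 ± 4.57 TPM in control (SD, n = 4), a log2 change of -0.21 (adjusted p = 0.0729 by limma).

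Antiapoptotic genes and the initiator Casp9 were not called. The log2 change was 0.14 for Bcl2l1 (limma adjusted p = 0.177), -0.14 for Mcl1 (0.357) and -0.00 for Bcl2 (0.983), whose sign changed between settings. For Casp9, which the apoptosome activates, the log2 change was -0.13 (limma adjusted p = 0.221), and for the BH3-only gene Bcl2l11 it was 0.00 (0.993). Trp53 itself lay between 92.97 and 99.4 TPM in cKO and between 79.2 and 96.8 TPM in control, with overlap between the groups (log2 change 0.16, limma adjusted p = 0.145), and it was called only without control library 4 (0.0491).

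**Figure D4:**
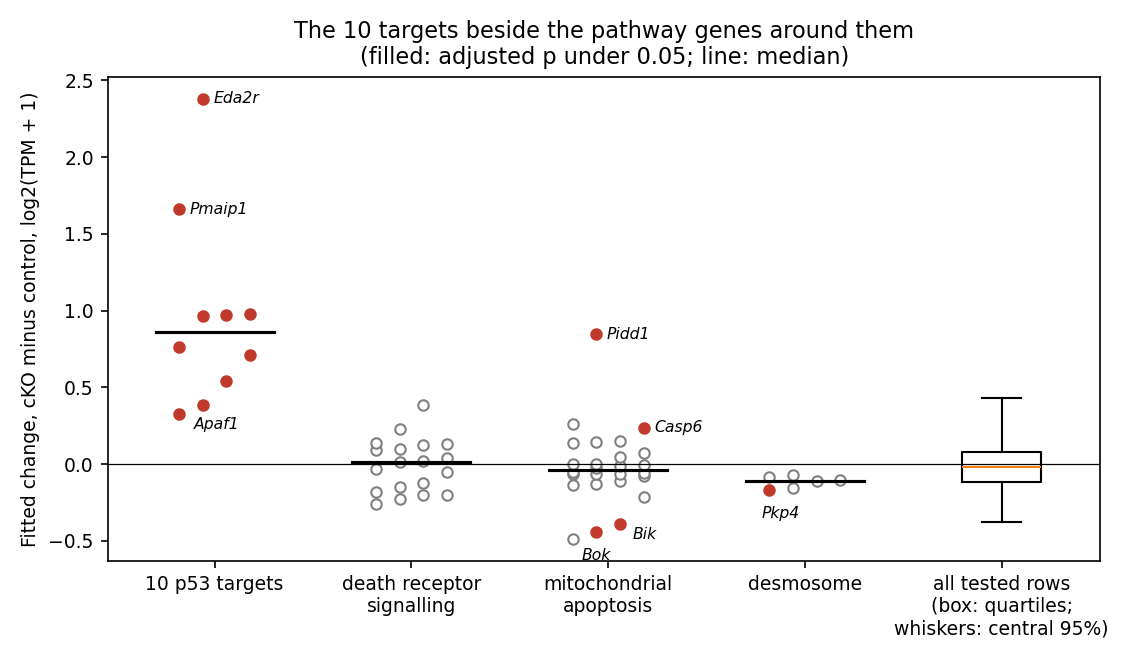
Fitted change, cKO minus control, on the log2(TPM + 1) scale for the 10 p53 targets, the tested genes of 3 neighbouring lists and all tested rows; filled points have an adjusted p under 0.05, short lines are medians, and whiskers of the box span the central 95% of rows. The medians are 0.86, 0.02, -0.04 and -0.11 for the targets, death receptor signalling, mitochondrial apoptosis and the desmosome.

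Rows most like the strongest risers were sought by the root mean square difference between profiles over the 8 libraries, each profile being log2(TPM + 1) minus its control mean. Nearest to Eda2r were Cdkn1a, which encodes the cyclin-dependent kinase inhibitor p21 (0.17), the anoctamin gene Ano3 (0.20) and the cytochrome oxidase isoform Cox6b2 (0.44). Ano3 averaged 6.05 TPM in cKO and 0.533 TPM in control, so it passed the filter on low values through its cKO level. Its log2 change ran from 0.99 with a pseudocount of 5 to 3.32 with one of 0.1, so its nearness to Eda2r depends on the pseudocount. Nearest to Pmaip1 were Trp53inp1, a p53 target (0.19), the xylulose reductase gene Dcxr (0.20) and again Cox6b2 (0.22). The measure does not compare the levels directly: Cdkn1a averaged 174 TPM in cKO and Eda2r 21.99 TPM. The pseudocount of 1 shrinks the profiles of low genes, however, so near profiles can differ in their ratio of TPM. Pmaip1 averaged 1.11 TPM in control and 5.62 TPM in cKO, and Trp53inp1 12.8 and 37.0 TPM.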

How the data were processed

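The deposited table gives 1 TPM column per library. Per the submitters' processing notes the tools were FastQC, Trim Galore 0.6.7, HISAT2 2.2.1, StringTie 2.2.1, featureCounts and DESeq2, with GRCm38. Which of them made the TPM values the authors deposited, the annotation and the use of strand are not given in the sources used here. All 10 genes had the same start and end in the RefSeq table of GRCm38.p6.

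The test was limma 3.58.1 (R 4.3.3; lmFit and eBayes with trend, two-sided) on log2(TPM + 1), for 15541 rows with a mean of at least 1 TPM, and p-values were adjusted over all of them by the Benjamini-Hochberg method. The threshold was an adjusted p of 0.05. p-values measure the spread between these libraries. Fold changes on this scale understate those of low genes. The members and lists were chosen with earlier results of these data known. Named were the 10 genes, Rps19bp1 and Trp53. For each of the 10 called with a change of at least 1, the 3 nearest rows were named, within the limits of the search given above. Also named were called genes of 3 context lists with a fixed set of ligands, adaptors, BCL2 family genes and caspases. 1 gene of that set is not reported here. The pair of p53 half-sites was sought after the single half-site. The procedure was tested on simulated data. Alternatives were 2 pseudocounts, 2 filters, 3 scalings, no trend, array weights, a replicate block and leaving out each library. Figures were drawn with matplotlib 3.10.9.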

Additional observations from a re-analysis of the deposited data

Results flagged for a closer look

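Of 34 groups of 4 libraries examined, 1 held a value far from the others, and chance alone does this in about 1 of 20 groups. Bik stood at 18.01 TPM in cKO replicate 3, while the other 3 cKO libraries lay between 22.6 and 22.9 TPM.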

How the results depend on the processing

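The 10 genes rose under every alternative in which they were tested. All 10 were called under the pseudocounts, scalings, array weights, fit without a trend and replicate block, 8 with no filter, 8 (all that were tested) at a mean of at least 5 TPM, and 9 to 10 when single libraries were left out. The number of all rows called, 994, became 347 with no filter, 609 without a trend and 420 with the replicate block, and ran from 388 to 936 with single libraries left out. Replicate numbers showed no clear pairing of the libraries: deviations of same-numbered libraries correlated at -0.09 to 0.07, and 2 of 4 cKO libraries correlated best with their own number. With so few libraries this check cannot exclude a pairing. The replicate block moved the calls of all rows from 994 to 420 and left 10 of the 10 genes called. The death receptor list had 1 call at a mean of at least 5 TPM, with quantile normalization and with median-ratio scaling, and 0 with any library left out. The 4 calls of the mitochondrial list became 1 with no filter, 2 without a trend and 2 with the replicate block, and 1 to 4 with libraries left out. The 1 desmosome call became 0 with no filter, each of the 3 scalings, no trend, the replicate block or any library left out. The cause was not tested. Of the pairs, Pmaip1 with Bax lost its call at a pseudocount of 5 (-0.11), and Fas with Tnfrsf10b changed sign at a pseudocount of 5 (0.35), with quantile normalization (0.037) and median-ratio scaling (0.0031), and ran from -0.145 to 0.126 with libraries left out. Signs near 0 also changed for genes that were not called: Bcl2 with median-ratio scaling (0.020), rescaling (0.028) and libraries left out (-0.080 to 0.050) and Bcl2l11 with array weights (-0.0037) and libraries left out (-0.060 to 0.042).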

Other observations

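A further row inside Apaf1 was higher in cKO. Gm25390, which lies on the opposite strand, held 1.74, 1.56, 1.41 and 1.05 TPM in cKO libraries 1 to 4 and 0, 0.0790, 0.196 and 0.824 TPM in control libraries 1 to 4, and it fell below the filter on low values. Endog, which encodes a mitochondrial nuclease released in apoptosis, had the lowest log2 change of the mitochondrial list, -0.49, and was not called (30.5 ± 7.88 TPM in cKO against 42.5 ± 7.53 TPM in control, SD, n = 4, limma adjusted p = 0.123). Bmf, a BH3-only gene, had all cKO libraries above all controls, as did 5.33% of all tested rows. It stood at 10.6 ± 0.589 TPM in cKO against 8.77 ± 1.45 TPM in control (SD, n = 4) and was not called either (log2 change 0.26, limma adjusted p = 0.168). All 3 rows were chosen after their values were seen.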
